A study of Homo sapiens and Mus musculus with 66 samples.

Results

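The windows described here are those that lamin-B1 cTSA-seq called in sorted S phase HCT116 cells and in neither G1 nor G2 cells. The members were chosen by 3 deposited lists of called regions: a 100 kb window of hg19 counted as a member where the S list covered it and the G1 and G2 lists did not. Of 30970 windows on chromosomes 1 to 22, X and Y, 705 were members, a total of 70.5 Mb. For comparison, 233 windows were called in G1 only, 178 in G2 only, 364 in G1 and S, 349 in S and G2, 145 in G1 and G2, 5508 in all 3 phases, and 23488 in none.

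cTSA-seq deposits biotin on chromatin close to lamin-B1 through an antibody-bound peroxidase, and the labelled chromatin is pulled down with streptavidin (StrePD) and sequenced beside an input library. HCT116 cells come from a human colorectal carcinoma. Their G1, S and G2 cells were taken from an unblocked culture, fixed with paraformaldehyde and separated by DNA content, with 2 input and 2 StrePD libraries per phase. The 90m G1 and 180m G1 cells were released from a nocodazole block, for which the labels give 16 h and the study's methods a longer time, and were sorted for G1 DNA content 90 or 180 min after release. Unsorted HCT116 cells gave 4 further lists, from bulk cells and from 50000, 200000 and 1000000 cells, and K562, a human leukemia line, gave a cTSA-seq list, which stands beside a list from published TSA-seq data. The sort separates cells by DNA content only, and the G2 gate also holds mitotic cells.

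The nuclear lamina (NL) is a meshwork of lamins under the inner nuclear membrane. Large stretches of chromatin that lie against it, called lamina-associated domains (LADs), are known for low gene density, low GC content, little transcription and late replication. LADs leave the lamina when the nuclear envelope breaks down in mitosis and meet it again as the nucleus reforms in G1, and in S phase their DNA is copied while most of them stay at the nuclear periphery.

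The upstream sequences of 4 protein-coding genes that start inside stretches of S-only windows are shown, as examples of how different such sequences can be. ADGRL2, TRIB2 and PAPPA start in the longest stretches. NTRK2 starts in 1 of the longest of those with no G1 or G2 window beside them. For each, the 250 bases before the annotated start are given 5′ to 3′ in the gene's direction, from the hg19 reference and not from the cells, with CG dinucleotides in capitals. In each of these stretches the longest protein-coding gene that starts there was taken, and other stretches that also hold gene starts are not shown. The genes are ADGRL2 at chr1:81771582-81771831 on the plus strand, TRIB2 at chr2:12856786-12857035 on the plus strand, PAPPA at chr9:118915820-118916069 on the plus strand, and NTRK2 at chr9:87283040-87283289 on the plus strand, the positions being those of the bases shown.
ADGRL2: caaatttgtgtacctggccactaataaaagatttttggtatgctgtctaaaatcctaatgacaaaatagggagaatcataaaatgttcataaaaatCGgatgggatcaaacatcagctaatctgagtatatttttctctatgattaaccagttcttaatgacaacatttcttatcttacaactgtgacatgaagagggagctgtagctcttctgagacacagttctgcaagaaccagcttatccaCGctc
TRIB2: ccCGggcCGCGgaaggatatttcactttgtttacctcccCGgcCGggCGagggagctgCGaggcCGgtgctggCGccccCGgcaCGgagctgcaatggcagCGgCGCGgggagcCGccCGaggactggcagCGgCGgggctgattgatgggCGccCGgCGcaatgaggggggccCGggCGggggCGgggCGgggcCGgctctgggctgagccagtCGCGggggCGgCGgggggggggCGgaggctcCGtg
PAPPA: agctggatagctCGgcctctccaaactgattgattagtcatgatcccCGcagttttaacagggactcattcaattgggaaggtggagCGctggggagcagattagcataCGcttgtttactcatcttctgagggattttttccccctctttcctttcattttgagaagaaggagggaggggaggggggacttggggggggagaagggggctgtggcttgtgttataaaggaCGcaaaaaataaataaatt
NTRK2: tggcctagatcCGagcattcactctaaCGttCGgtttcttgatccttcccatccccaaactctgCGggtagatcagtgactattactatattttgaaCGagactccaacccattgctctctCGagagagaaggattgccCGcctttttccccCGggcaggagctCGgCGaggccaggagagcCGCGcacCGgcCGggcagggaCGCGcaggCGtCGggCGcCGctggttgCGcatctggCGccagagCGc

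These upstream sequences differed widely. TRIB2 had 32 CG dinucleotides at a GC content of 78.4%, and NTRK2 had 23 at 60.8% GC. PAPPA had 5 CG dinucleotides at 48.0% GC. ADGRL2 had 2 at 36.0% GC. Both kinds also occurred among all S-only windows: of 222 upstream sequences without unknown bases, 76 (34.2%) were CG-rich, here meaning at least 50% GC and a CG count of at least 0.6 of that given by the C and G content. The share was 51.7% of 20140 over all protein-coding genes, 52.8% for genes starting in windows called in no phase, 31.8% in windows called in all 3 phases, 56.7% in G1-only windows and 46.4% in G2-only windows.

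Each phase has 1 deposited list, already merged over its replicates by the authors. No spread between replicates can therefore be given, no difference between classes of windows could be tested, and the values below describe these lists. The lists hold region starts and ends without signal or read counts, so the depth behind a call is unknown and values of windows just inside and just outside the calling threshold cannot be given. Intervals of 95% are Wilson intervals over windows for shares and exact Poisson intervals for gene densities. They cover counting only, and since neighbouring windows are not independent they are too narrow.

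S-only windows made up 10.2% of the 6926 windows in the S list. G1-only windows were 3.73% of the 6250 windows in the G1 list, and G2-only windows were 2.88% of the 6180 in the G2 list. The S list was also the longest of the 3, with 693 Mb against 625 Mb for G1 and 618 Mb for G2. The part of list length in these shares was not tested.

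Most S-only windows lay at or near regions that G1 or G2 also called, which is a description of what the rule chose. The median distance from a member to the nearest G1 or G2 window was 300 kb, and 230 members (32.6%) were directly beside one. Within 500 kb lay 470 members (66.7%), while 151 (21.4%) lay more than 1 Mb away. By the same measure, 45.1% of G1-only windows were beside a window of the S or G2 list and 24.0% were more than 1 Mb from one, and for G2-only windows the shares were 55.1% and 6.74%. The G2 list was nearer for 284 members, the G1 list for 208, and both were equally near for 213.

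Where a member touched a G1 or G2 window, that neighbour was usually in the S list too. Of the 230 members beside one, 77 had a neighbour called in S and G2, 76 a neighbour called in all 3 phases and 65 a neighbour called in G1 and S. Only 5 lay beside a G1-only window, 4 beside a G2-only window, 1 beside a window called in G1 and G2, and 2 beside windows of different kinds on either side. So the S call mostly ran on past the end of a call in another phase.

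The members formed 278 stretches of neighbouring windows with a median length of 200 kb and a mean of 254 kb. Of these, 204 (73.4%) touched a G1 or G2 region on 1 side, 15 (5.40%) filled the space between 2 such regions, and 59 (21.2%) touched none and were S regions of their own. Single windows made up 54.9% of the stretches with contact on 1 side and 16.9% of those with no contact, whose median length was 300 kb. The 42 stretches of 5 or more windows held 286 members. By comparison, G1-only windows formed 135 stretches of at most 900 kb and G2-only windows 116 stretches of at most 600 kb.

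**Figure D1:**
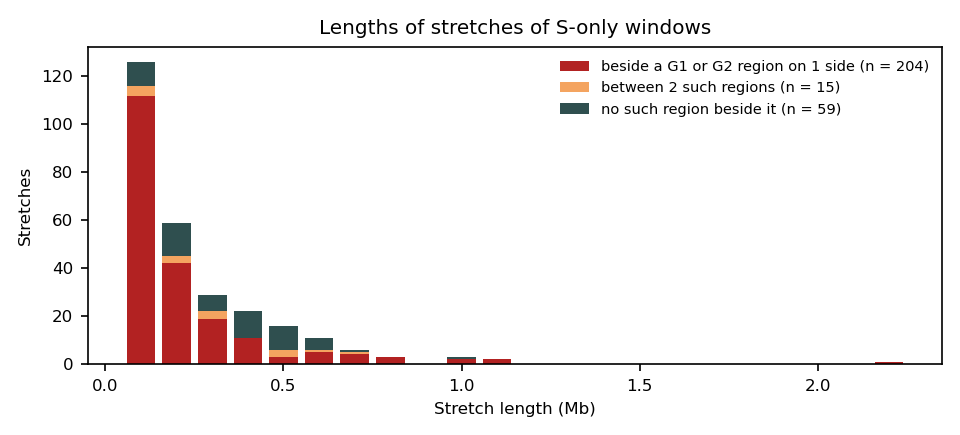
Number of stretches of S-only windows (vertical axis) by length in Mb (horizontal axis), with colours for contact with a G1 or G2 region. Single windows are the most frequent, and 1 stretch of 2200 kb stands far to the right of the others.

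S-only windows were spread unevenly over chromosomes. As a share of the chromosome's windows they were highest on chromosome Y with 5.89% (35 members), followed by chromosome 9 with 4.03% (57), chromosome X with 3.73% (58) and chromosome 1 with 3.41% (85). On chromosomes 14, 15, 16, 17, 19, 20 and 22 the share was under 1%, with 5, 8, 7, 4, 1, 3 and 1 members. On chromosome 19, which is gene-dense, 26 windows were called in G1 only and 1 in S only. Near chromosome ends, within 2 Mb, lay 6 members (0.851%), against 3.18% of all windows.

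**Figure D2:**
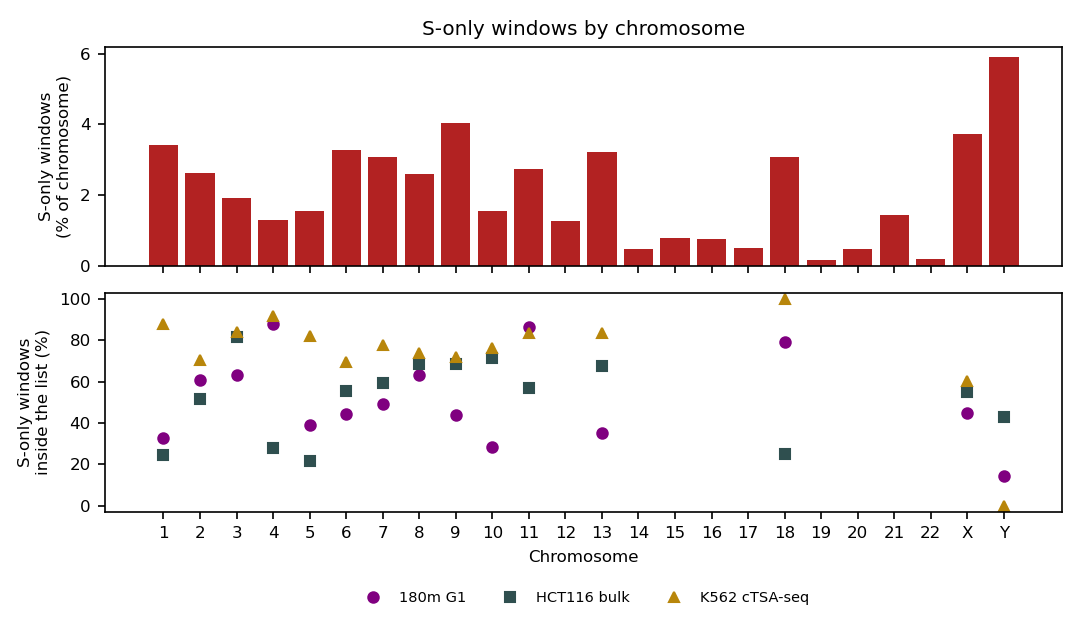
Upper panel, S-only windows as a percentage of each chromosome's windows. Lower panel, percentage of those windows inside the 180m G1, HCT116 bulk and K562 cTSA-seq lists, for the 15 chromosomes with at least 20 members: K562 cTSA-seq runs from 0 on chromosome Y to 100% on chromosome 18, and bulk from 21.4% on chromosome 5 to 81.6% on chromosome 3. Read coverage of chromosome Y in K562 is not known.

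The GC content of S-only windows was low, near that of the windows called in every phase. Its median was 38.4% (quartiles 36.7 and 40.6%), over a range of 33.1 to 52.7%, against 39.8% for all windows with known bases. For windows called in all 3 phases the median was 37.5%, for S and G2 38.5%, for G2 only 39.6%, for G1 and S 40.4% and for G1 only 43.7%, and for windows called in none it was 40.7%. G1-only windows thus stood furthest from S-only windows, with a lower quartile of 40.6% that equalled the upper quartile of S-only windows. Of the members, 31.3% had a GC content above the median of all windows, 1 had no known bases and 4 were unknown for at least 50% of their length.

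Protein-coding genes started less often in S-only windows than in uncalled windows and more often than in the windows called throughout. There were 223 such starts, 3.16 per Mb (2.76 to 3.61), in 705 windows, of which 546 (77.4%) held none. The density was 1.35 per Mb (1.25 to 1.45) where all 3 phases called, 3.15 (2.38 to 4.09) in G2-only windows, 5.16 (4.28 to 6.17) in G1-only windows and 8.0 (7.88 to 8.11) in windows called in none. Of all 20162 protein-coding genes, 1.11% started in an S-only window. The genes that did had a median length of 33.1 kb, beside 27.2 kb for all protein-coding genes. It was 31.4 kb for genes starting in G1-only windows, 31.7 kb where all 3 phases called and 26.9 kb in windows called in none. In all, 174 genes had at least 80% of their length in members.

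Of the gene families counted here by symbol, each had few or no starts in S-only windows. Families that were not counted also had starts there. For example, the 3 windows at chr1:12800001-13100000 held 12 starts, several of them of PRAMEF genes. Over all protein-coding genes the shares were 1.11% in S-only windows, 3.69% in windows called in all 3 phases and 93.1% in windows called in none, so that most families would have few or no starts in S-only windows at that share. Olfactory receptor genes, which encode odorant receptors and lie in clusters, had 10 of 415 starts there (2.41%), against 128 (30.8%) in windows called in all 3 phases. OR10J1, OR10J4 and OR10J5 lay together on chromosome 1, in windows that 3 of the 4 unsorted HCT116 lists also called. OR4A5 and OR4A8 on chromosome 11 lay in windows called by all 4, and OR9A2 and OR6V1 on chromosome 7 in windows called by none of the 4 but called at 180 min. Potassium channel genes had 3 of 95 starts (KCNQ5, KCNH7 and the channel-interacting KCNIP1). Solute carriers, which are membrane transporters, had 4 of 374 (SLC35F1, SLC12A1, SLC6A5 and SLC24A5), or 1.07%. Cadherins and protocadherins, counted together, had 1 of 94 (CDH2), or 1.06%. Both shares were near that of all genes. Beta-defensins had 1 of 40 (DEFB112).

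Zinc finger genes (ZNF), many of which encode repressors and lie in clusters on chromosome 19, had 2 of 515 starts in S-only windows, ZNF648 and ZNF711. They had 39 in G1-only windows and none in G2-only windows. Of all 20162 protein-coding genes, 120 started in G1-only and 56 in G2-only windows, so few or no starts in G2-only windows would be met at that share. Keratin and keratin-associated protein genes, counted together, had no start of 149 in S-only windows, which is near the 1.11% of all genes. Of these 149, 32 (21.5%) started in windows called in all 3 phases, beside 3.69% of all genes. GABA receptor genes had 11 of 19 starts in windows called in all 3 phases and none in S-only windows. Histone genes (0 of 69), UDP-glucuronosyltransferases (0 of 22) and cytochrome P450 genes (0 of 57) were also without a start there, beside the 1.11% of all genes. Of 50 genes that work in S phase, among them the MCM helicase subunits, PCNA and the DNA polymerase subunits, all 50 started in windows called in none of the 3 phases, beside 93.1% of all protein-coding genes.

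Whether windows called in S alone were already at the NL soon after mitosis was read from the 180m G1 list, which the rule did not use. It held 338 members, 47.9% (44.3 to 51.6%), beside 20.5% of all windows. The share was 85.1% for windows called in all 3 phases, 62.8% for S and G2, 42.6% for G1 and S, 34.3% for G2 only, 19.3% for G1 only and 3.34% for windows called in none. Thus S-only windows were in the 180m G1 list more often than G1-only windows were. In the 90m G1 list the order was different: it held 188 members, 26.7% (23.5 to 30.1%), beside 17.0% of all windows, 42.5% of G1-only windows, 20.2% of G2-only windows and 32.2% of windows called in all 3 phases. Both early lists held 106 members, and 82 were in the 90m G1 list alone of the 2. These 82 had a median GC content of 42.1% and 5.73 gene starts per Mb, against 38.1% and 3.20 for the 338 members at 180 min.

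The 180m G1 list had no region on chromosomes 19 and 22 and the 90m G1 list none on chromosomes 19 and 21, which together hold few members. G1-only windows numbered 26 on chromosome 19, 8 on chromosome 21 and 9 on chromosome 22. A larger part of the G1-only windows than of the S-only windows thus could not be in these 2 lists. Among the 15 chromosomes with at least 20 members, the share at 180 min ran from 14.3% on chromosome Y to 88.0% on chromosome 4, with a median of 44.8%.

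In unsorted HCT116 cells, where G1, S and G2 cells were mixed, between 31.6 and 53.0% of S-only windows were called. The bulk list, which was the longest, held 374 members, 53.0% (49.4 to 56.7%), beside 26.9% of all windows. The 50000-cell list held 272, 38.6% (35.1 to 42.2%), beside 22.8%. With 200000 cells it was 237, 33.6% (30.2 to 37.2%), beside 21.9%. With 1000000 cells, for which the labels hold 1 input and 1 StrePD library, it was 223, 31.6% (28.3 to 35.2%), beside 21.2%.

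These shares were far below those of windows called in all 3 phases, which lay between 94.7 and 99.0%, and of the same order as those of G1-only and G2-only windows. Bulk held 73.0% of G1-only and 66.3% of G2-only windows, the 50000-cell list 47.6 and 37.6%, the 200000-cell list 30.9 and 43.3%, and the 1000000-cell list 33.0 and 36.0%. Only 54 members (7.66%) were in all 4 unsorted lists, 119 were in 3, 145 in 2, 243 in 1 and 144 (20.4%) in none. For G1-only windows the share in none was 6.87%, and for G2-only windows it was 12.4%. On chromosome 1, which holds the longest stretch, bulk held 24.7% of 85 members, and without that chromosome the bulk share was 56.9%.

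Support by all 4 lists went with nearness to a G1 or G2 region. Of the 54 members in all 4 lists, 68.5% were beside such a region, against 12.5% of the 144 in none, whose median distance was 600 kb. Of those 144 members, 55 were in the 180m G1 list, and 85 members (12.1% of 705) were in none of the other 6 HCT116 lists.

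In K562, another cell line, the cTSA-seq list held a larger part of the S-only windows than any other HCT116 list did, and it was also longer than those lists. K562 cTSA-seq held 510 members, 72.3% (68.9 to 75.5%), beside 39.6% of all windows, and K562 TSA-seq held 391, 55.5% (51.8 to 59.1%), beside 33.9%. The order of K562 TSA-seq and HCT116 bulk (53.0%) depended on the counting: without chromosome 1 the shares were 53.2 and 56.9%, and 46.0 and 62.2% of stretches had at least 50% of their windows in these lists. For windows called in all 3 phases the shares were 86.1 and 74.2%, for G2-only windows 61.8 and 29.8%, for G1-only windows 28.3 and 9.44%, and for windows called in none 26.8 and 23.8%. The regions that both K562 methods called as LADs held 372 members (52.8%), beside 30.1% of all windows. The regions that both methods called nonLADs held 10 members (1.42%, 0.772 to 2.59%), beside 20.9% of all windows, 18.9% of G1-only windows and 1.69% of G2-only windows.

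Of the 85 members found in no other HCT116 list, 75.3% were in the K562 cTSA-seq list and 62.4% in the K562 TSA-seq list. Only 19 members were in none of the other HCT116 lists and in neither of these K562 lists. Chromosome Y held 35 members, none of them in the K562 cTSA-seq list, which covered 5.56% of that chromosome. These lists do not tell how well K562 reads covered chromosome Y. The absence there is therefore not read as a difference in lamina contact between the cell lines. Without chromosome Y, 76.1% of members were in K562 cTSA-seq and 58.1% in K562 TSA-seq.

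**Figure D3:**
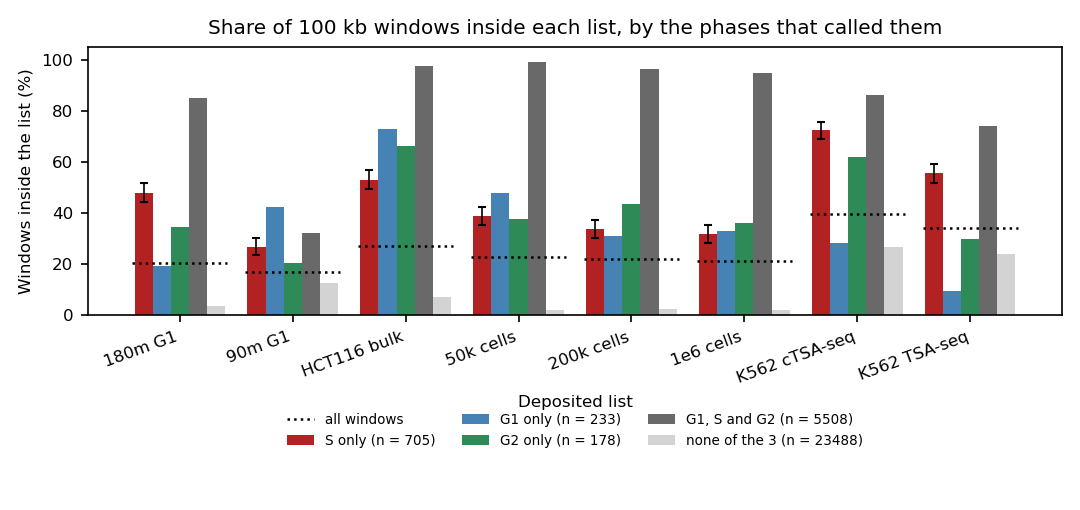
Percentage of windows (vertical axis) inside each of 8 lists (horizontal axis), for windows called in S only, G1 only, G2 only, all 3 phases or none; dotted lines give all windows and error bars the 95% Wilson interval of the S-only share. S-only windows stand above G1-only and G2-only windows in the 180m G1 list and in both K562 lists, and below both in the bulk list.

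Windows close to a called region are often called in another list too, so S-only windows were set beside windows at the same distance from a G1 or G2 region that no phase called. Directly beside a region, 52.2% of 230 S-only windows and 17.8% of 675 uncalled windows were in the 180m G1 list. At 2 windows the shares were 52.7% of 110 and 13.9% of 692, at 3 to 5 windows 46.2 and 7.67%, at 6 to 10 windows 56.0 and 4.23%, and beyond 10 windows 35.1% of 151 and 1.80% of 17713. The share at 180 min was thus higher for S-only windows at each distance.

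In the bulk list the gap was smallest beside a region, where 69.6% of S-only and 52.7% of uncalled windows were called. It was 55.5 and 34.7% at 2 windows, 46.9 and 20.5% at 3 to 5, 35.7 and 9.92% at 6 to 10, and 41.1 and 2.22% beyond. The 3 lists from counted cells also held more S-only than uncalled windows at each distance, for example 57.0 against 28.4% beside a region in the 50000-cell list, 43.9 against 27.0% with 200000 cells and 41.7 against 26.4% with 1000000 cells.

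For K562 cTSA-seq the share of S-only windows was higher at larger distances, from 63.5% beside a region through 63.6, 70.0 and 82.1% to 88.7% beyond 10 windows, while uncalled windows had 41.0, 30.3, 24.3, 18.3 and 27.7%. In K562 TSA-seq the S-only share was 44.8, 49.1, 56.2, 72.6 and 66.2% in the same order. The median GC content of S-only windows was 39.0, 38.8, 38.5, 37.5 and 37.7%, and their gene density was 3.57, 4.27, 3.46, 1.07 and 2.65 starts per Mb, so that gene density did not follow distance step by step. The parts of GC content and gene density in these shares were not tested.

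**Figure D4:**
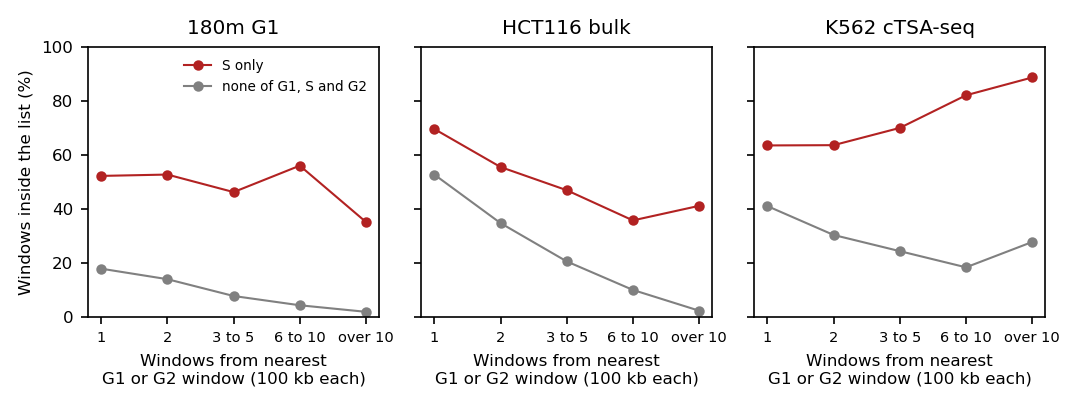
Percentage of windows inside the 180m G1, HCT116 bulk and K562 cTSA-seq lists (vertical axis) by distance to the nearest G1 or G2 window in windows of 100 kb (horizontal axis), for S-only windows and for windows called in no phase. The S-only points lie above the others in all 3 panels, and in K562 cTSA-seq they run from 63.5 to 88.7%.

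Of the S-only windows, 38 lay more than 5 Mb from any G1 or G2 region, of which chromosome 6 had 16, chromosome 3 had 14, chromosome 7 had 7 and chromosome 4 had 1. The farthest, on chromosome 3, was 52.6 Mb from the nearest. All 38 were in the K562 cTSA-seq list (100%) and 84.2% were in K562 TSA-seq, and in HCT116 65.8% were in bulk, 60.5% in the 200000-cell list, 55.3% in the 50000-cell list, 42.1% at 180 min and 26.3% in the 1000000-cell list. Their median GC content was 37.3%. Many of the 38 were neighbours, so these shares rest on few stretches. A single stretch at chr6:114900001-115900000 held 10 of them, of which 9 were in bulk. On chromosome 3, 85.7% of the 14 were in bulk, and on chromosome 7 none of the 7 were.

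At 1.00 Mb 3 stretches tied, so the 6 longest are described, and then the longest of those without contact to a G1 or G2 region. The longest lay at chr1:81100001-83300000, with 22 windows, and touched a single G2 window on 1 side. It held the whole of ADGRL2, an adhesion G protein-coupled receptor that binds partners across the synapse. None of its windows were in bulk, the 50000-cell, the 200000-cell or the 90m G1 list, 14 of 22 were in the 1000000-cell list, 5 were called at 180 min, and all 22 were in both K562 lists.

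**Figure D5:**
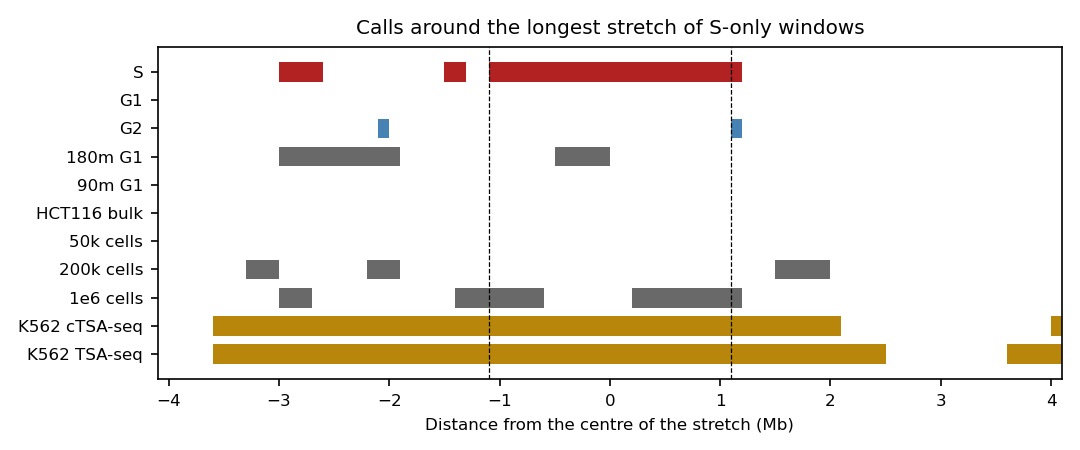
Windows called in 11 lists (rows) around the longest stretch of S-only windows, by distance in Mb from its centre (horizontal axis), with dashed lines at its ends. Between the lines only S, 180m G1 (5 windows), 1000000 cells (14 windows, labelled 1e6) and the 2 K562 lists (22 windows each) have calls.

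The stretch at chr7:40500001-41600000 (11 windows) held no gene start and overlapped SUGCT, which encodes a mitochondrial CoA transferase. Of its windows 8 were in bulk, none were in the early G1 lists or those from counted cells, and all 11 were in both K562 lists. At chr18:25100001-26200000, also 11 windows, lay CDH2, which encodes N-cadherin, an adhesion protein of neurons and mesenchymal cells. There 9 windows were called at 180 min, 2 were in bulk, 1 each with 50000 and 200000 cells, 3 with 1000000 cells, and all 11 in both K562 lists. Both stretches thus resembled the one on chromosome 1 in K562 and differed from it in HCT116.

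A pair of the stretches of 10 windows were called in full at both early times. At chr2:12200001-13200000, with TRIB2, a pseudokinase, all 10 windows were in the 90m G1 and 180m G1 lists, 4 were in bulk, none were in the lists from counted cells or in K562 cTSA-seq, and 1 was in K562 TSA-seq. At chr9:118300001-119300000, with PAPPA, a protease that cleaves insulin-like growth factor binding proteins, and part of ASTN2, all 10 were also in both early lists, 4 in bulk, none with 50000 cells, 3 each with 200000 and 1000000 cells, 7 in K562 cTSA-seq and 6 in K562 TSA-seq. Of the named stretches, these had the most windows in the early G1 lists. Shorter stretches were also called in full at both times, for example all 8 windows at chr7:141200001-142000000.

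The third stretch of 10 windows, at chr6:114900001-115900000, touched no G1 or G2 region and held no protein-coding gene. All 10 of its windows were in the 50000-cell and 200000-cell lists and in both K562 lists, 9 were in bulk, 8 were called at 180 min, 5 with 1000000 cells and none at 90 min. Its GC content was 35.7%. Of the named stretches it was the one with the most calls in the HCT116 lists from unsorted cells.

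Of the remaining stretches without contact, the longest lay at chr9:108700001-109400000, with 7 windows and no protein-coding gene. Of these, 5 were called at 180 min, 3 in bulk, 5 each with 50000 and 200000 cells, 4 with 1000000 cells and 7 in both K562 lists. A further 5 stretches tied at 6 windows. FGF12, an intracellular fibroblast growth factor that binds sodium channels, had 93.2% of its length in the stretch at chr3:191900001-192500000, of which 4 windows were in bulk, 4 at 90 min, none at 180 min and 6 in both K562 lists. CFAP299, named for cilia and flagella, had 93.1% of its length in the stretch at chr4:81300001-81900000, of which all 6 windows were called at 180 min and with 200000 cells, none in bulk, 4 in K562 cTSA-seq and none in K562 TSA-seq.

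The stretch at chr7:8900001-9500000 held no protein-coding gene, and all 6 of its windows were called at 180 min, with 200000 cells and in both K562 lists, beside 3 in bulk and 4 with 50000 cells. NTRK2, the receptor for brain-derived neurotrophic factor, lay whole in chr9:87200001-87800000, where all 6 windows were in bulk and in K562 cTSA-seq, 3 with 1000000 cells and none at 180 min or in K562 TSA-seq. The stretch at chr11:89200001-89800000 was different in kind, with 8 gene starts in 6 windows, among them that of NOX4, an NADPH oxidase, and those of TRIM49, TRIM49C, TRIM49D1 and TRIM49D2. The TRIM49 genes encode near-identical members of the tripartite motif family, so reads from 1 copy may have been placed on another and the calls there are uncertain. The same limit may apply to other members with gene copies. Among these are DAZ3 and DAZ4 on chromosome Y, which had the highest share of S-only windows. All 6 windows were called at 180 min, in bulk and in both K562 lists, 4 with 50000 cells and none with 200000 or 1000000 cells.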

How the data were processed

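Lamin-B1 cTSA-seq was measured by the authors in HCT116 and K562 cells, and 14 deposited lists of called regions were used, 9 from HCT116 and 5 from K562. Reads were aligned by the authors against hg19 (Bowtie2, 2.3.2) and deduplicated, window counts (bedtools, 2.26.0) of StrePD and input were scaled to equal totals, z-scores were formed from their log2 ratio, and the enriched state of a Hidden Markov Model with 3 states, intersected over replicates, gave the regions. The labels hold 1 input and 1 StrePD library for 1000000 cells, so replicates behind that list are not known. How the 90m G1 and 180m G1 lists were merged is not given in the sources used here. The deposited values are region starts and ends in bp, of unit "other", with neither signal nor depth.

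From these files, each 100 kb window of hg19 counted as called where a list covered at least 50% of it. No window was partly covered, and the 36 region ends off the 100 kb grid were all chromosome ends of the hg19 reference. The 2 regions outside chromosomes 1 to 22, X and Y were left out. GC content and upstream sequences came from the hg19 reference, and genes from GENCODE release 44 on that build. Python 3.11.15 was used (scipy 1.17.1, numpy 2.4.6), and the functions for distances, stretches and shares were tested on simulated data. The members and gene lists were chosen with earlier results of these data known. Named are the 5 longest stretches of S-only windows and the 3 longest with no G1 or G2 window beside them, with ties, and the protein-coding genes lying in 1 of them by at least 80%, or the 4 longest such genes; the upstream sequences of 3 stretches are not reported here. Alternatives changed the chromosomes, the stretches and the counting of genes. Mouse, hTERT-RPE1 and SLAM-seq data were not used here.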

Additional observations from a re-analysis of the deposited data

How the results depend on the processing

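No paired analysis was possible because each phase has 1 list that the authors merged over replicates, and leaving out replicates could not be done for the same reason. Other settings gave 80 values, of which 50 stayed within the 95% interval of the value reported (for the number of members, within 1.5 times), and 30 did not. Joining gaps of 1 window in the G1 and G2 lists and leaving out windows of mostly unknown bases left every value within these limits. Counting any overlap or whole windows had to give the same members, since no window was partly covered. These settings are among the 50 but do not show stability.

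On autosomes alone 77.6% of S-only windows were in K562 cTSA-seq and 59.3% in K562 TSA-seq. In stretches of at least 2 windows, 19.7% of members were beside a G1 or G2 window, 49.2% were in bulk and 59.4% in K562 TSA-seq. For members with no G1 or G2 window beside them the shares were 45.1% in bulk, 29.7% with 50000 cells, 28.6% with 200000 cells, 26.7% with 1000000 cells, 76.6% in K562 cTSA-seq and 60.6% in K562 TSA-seq, and the median GC content was 38.2%. The mean GC content was 38.9%. Gene density was 14.2 per Mb for starts of genes of all types, 2.47 for genes with 80% of their length in members and 4.45 for genes with any overlap.

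Counted as stretches with at least 50% of their windows in a list, support was 30.6% at 90 min, 62.2% in bulk, 50.4% with 50000 cells, 38.8% with 200000 cells, 39.6% with 1000000 cells, 66.5% in K562 cTSA-seq and 46.0% in K562 TSA-seq. With any window in the list it was 31.3, 64.7, 53.6, 43.5, 43.9, 67.6 and 47.8% in the same order. Under these countings a short stretch weighs as much as a long one.

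Leaving out each chromosome in turn gave 288 values, 286 of them within the limits. Members numbered 620 to 704, the share beside a G1 or G2 window was 31.5 to 34.2%, the median GC content 38.3 to 38.6% and the gene density 2.94 to 3.33 per Mb. Support ranged from 45.8 to 50.0% at 180 min, 23.7 to 28.2% at 90 min, 51.4 to 56.9% in bulk (highest without chromosome 1), 37.0 to 41.1% with 50000 cells, 31.9 to 34.8% with 200000 cells, 30.1 to 33.7% with 1000000 cells, 70.2 to 76.1% in K562 cTSA-seq (highest without chromosome Y) and 53.1 to 58.1% in K562 TSA-seq. Depth limits are unknown, since the lists hold no counts.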

Other observations

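S-only windows fell into groups of unlike composition when split by the 180m G1 and bulk lists, a split chosen after the values were seen. The 150 members called at 180 min but not in bulk had a median GC content of 37.1% and 2.33 gene starts per Mb, and 79.3% of them were in K562 TSA-seq. The 186 members called in bulk but not at 180 min had a median GC content of 40.7% and 4.14 gene starts per Mb, and 27.4% were in K562 TSA-seq. The 181 members in neither list lay nearer to the first group, with 37.2%, 2.10 per Mb and 61.3%. The 188 members in both had 38.9%, 3.88 per Mb and 58.5%.

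Members that held the start of a protein-coding gene (159 windows) were in the 90m G1 list in 40.9% of cases, and those without one (546 windows) in 22.5%. At 180 min the shares were 47.8 and 48.0%. In bulk they were 66.0 and 49.3%, with 200000 cells 23.3 and 36.6%, and with 1000000 cells 21.4 and 34.6%. The bulk list thus held members with genes more often, while the lists from counted cells held them less often. None of these differences could be tested with 1 list per condition.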
